A study of Mus musculus with 24 samples.

Results

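Cytokines are secreted proteins through which cells signal to one another, and the genes described here encode 9 of them: Tnf, Il1a, Il1b, Il6, Il15, Il18, Csf1, Csf2 and Lif. They were taken by gene symbol from a count table of 17696 genes, and 6 of the 9 were listed. Il6, Il18 and Csf2 were not listed, and the table held only genes with at least 10 reads over all libraries, so these 3 genes were not analysed here. Bulk RNA-seq was carried out in MIN6 cells, a mouse insulinoma line used as a model of the pancreatic β cell, in 24 libraries forming 6 groups of 4. Scr cells carried a lentiviral scrambled sequence, ZIP cells an antisense sequence that inhibits miR-146a-5p, and OE cells a vector overexpressing miR-146a-5p. Scr, ZIP and OE were cultured without cytokines, and Scr+Cy, ZIP+Cy and OE+Cy were the same lines cultured for 24 h in the presence of IL-1β at 5 ng/ml, IFNγ at 100 ng/ml and TNFα at 10 ng/ml. All lines were transduced, selected with puromycin and grown from picked single clones, so the effect of a vector and the properties of its clone cannot be told apart. Scr and ZIP shared a vector backbone with copGFP as the reporter, whereas OE cells carried a different backbone with Turbo RFP, a further difference that cannot be told apart from miR-146a-5p itself. The labels number the libraries of each group without saying that they came from separate cultures, so p-values measure only the spread between these libraries. The mature microRNA was not measured in these mRNA libraries, and the line labels were therefore not checked against it here. By qRT-PCR of untreated cells, the authors reported miR-146a-5p as raised in OE and unchanged in ZIP against Scr.

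TNF, IL-1α and IL-1β act on receptors that lead to NF-κB, the transcription factor through which many inflammatory genes are switched on, and IL-1β is made as a precursor that caspase-1 cleaves. LIF and IL-6 signal through receptors that contain gp130, IL-15 through chains shared with the IL-2 receptor, and CSF1 (M-CSF) and CSF2 (GM-CSF) support macrophages and granulocytes. In islets, IL-1β, TNFα and IFNγ from infiltrating immune cells injure β cells, and miR-146a is known as a brake on NF-κB signalling through Irak1 and Traf6. The reads measured here come from the cells' own genes, not from the recombinant IL-1β and TNFα proteins in the medium.

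The promoters of the 4 genes on which most of the comparisons turn are shown because Tnf, Csf1 and Lif rose with cytokines and Il1b followed another pattern. Each sequence is the 250 bases before the annotated start, 5′ to 3′ on the strand of the gene, from RefSeq (GRCm38.p6), and the capitals mark matches to the motifs described next. The mature miR-146a-5p from the same source is given with its seed, bases 2 to 8, in capitals.
Tnf promoter, chr17:35202008-35202257, minus strand: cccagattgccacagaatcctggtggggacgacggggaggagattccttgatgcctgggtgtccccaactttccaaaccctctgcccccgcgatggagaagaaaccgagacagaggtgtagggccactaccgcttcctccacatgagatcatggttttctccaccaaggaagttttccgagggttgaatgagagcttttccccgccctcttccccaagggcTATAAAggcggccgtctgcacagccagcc
Csf1 promoter, chr3:107760470-107760719, minus strand: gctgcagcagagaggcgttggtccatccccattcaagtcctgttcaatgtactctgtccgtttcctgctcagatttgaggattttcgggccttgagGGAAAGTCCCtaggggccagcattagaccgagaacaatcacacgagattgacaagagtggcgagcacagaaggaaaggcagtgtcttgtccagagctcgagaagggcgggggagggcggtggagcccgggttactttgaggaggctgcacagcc
Lif promoter, chr11:4257318-4257567, plus strand: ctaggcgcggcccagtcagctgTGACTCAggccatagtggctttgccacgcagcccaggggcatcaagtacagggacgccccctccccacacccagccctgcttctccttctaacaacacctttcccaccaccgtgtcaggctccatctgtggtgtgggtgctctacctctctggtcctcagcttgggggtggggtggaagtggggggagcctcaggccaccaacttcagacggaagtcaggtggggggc
Il1b promoter, chr2:129371140-129371389, minus strand: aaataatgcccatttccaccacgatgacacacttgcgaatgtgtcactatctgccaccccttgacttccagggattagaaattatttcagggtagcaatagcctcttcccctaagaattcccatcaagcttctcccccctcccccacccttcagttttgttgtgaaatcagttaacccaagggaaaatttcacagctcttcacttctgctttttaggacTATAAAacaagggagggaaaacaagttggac
miR-146a-5p, chr11:43374435-43374456, minus strand: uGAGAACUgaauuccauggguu

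RefSeq promoters, from 250 bases before to 50 after the start, were found for 8 of the 9 genes, all but Il15, and were searched on both strands for the κB consensus, the interferon-stimulated response element core (GAAA, any 2 bases, GAAA), the GAS motif (TTC, any 3 bases, GAA), the AP-1 motif TGANTCA and TATAAA. The κB consensus was found in Csf1, at positions -154 to -145 on the opposite strand, and in Il6, at -44 to -35. It was held by 4.51% of the 32851 promoters of the table. The AP-1 motif, held by 7.81% of promoters, was found in Lif at -228 to -222, in Il1a at -12 to -6 and in Il6 at -249 to -243. TATAAA, held by 13.6%, lay at -29 to -24 in Tnf, at -31 to -26 in Il1b and at -32 to -27 in Il1a, and on the opposite strand in Il18 at -175 to -170. The response element core (3.44% of promoters) and the GAS motif (8.3%) were found in none of the 8 windows. The 7 bases complementary to the seed, AGTTCTC, were found in the annotated 3′ UTR of 0 of the 9 genes and of 11.9% of the 21005 genes with one in GENCODE M21. These matches describe letters in a window and are not evidence of binding.

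Library totals ran from 26657792 to 37168232 reads (median 30701023). Levels are given as CPM, reads scaled to the size of each library (counts per 1000000). All 12 β cell markers tested were listed, 11 or 12 of them at 1 CPM or more in every group, with Ucn3 under 1 CPM in the Scr and ZIP lines. Of 13 macrophage and myeloid markers 11 were listed, Adgre1 and Spi1 were not, and their summed level ran from 6.0 to 9.58 CPM in OE+Cy and from 16.7 to 27.6 CPM in Scr+Cy. Most of that sum was C1qa. Without it the other 10 listed markers summed to 2.43 to 4.54 CPM in OE+Cy and 1.51 to 4.83 CPM in Scr+Cy, ranges that overlap. The part of these markers in the results was not tested. Ptprc, which encodes the leukocyte protein CD45, stayed at or below 0.422 CPM in every library, and Tyrobp was at 0 in 23 of 24. Of the 8 lymphocyte markers 3 were listed, summed to at most 0.767 CPM, and of the 5 endothelial markers 3, summed to at most 3.96 CPM, in OE+Cy. The 7 fibroblast markers summed to 60.8 CPM in Scr+Cy replicate 1, 55.7 in ZIP replicate 1 and 19.3 in Scr replicate 1, against 0.537 to 8.06 CPM in the other libraries. Leaving these 3 libraries out left the members called, by the rule given below, at 4 in Scr+Cy against Scr (1237 of all genes). It left 4 in ZIP+Cy against ZIP (1624), 5 in OE+Cy against OE (3512) and 5 in OE+Cy against Scr+Cy (4528). The members called fell from 2 to 1 in ZIP against Scr (2047 of all genes) and in OE against Scr (4076). In ZIP+Cy against Scr+Cy they fell from 3 to 2 (2089). These 3 changed calls are given below. In bulk RNA, fewer cells expressing a gene and less RNA per cell cannot be told apart.

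Tnf encodes tumor necrosis factor (mm10 chr17:35199367-35202007, minus strand). It was at or near 0 without cytokines and was read in every library with them. Scr had 0 reads in all 4 libraries, OE had 2 reads in replicate 2 and 0 in the others, and ZIP had 0, 0, 1 and 5 reads. Where none of the 4 libraries of a group exceeded 3 reads, the group is said to be at the detection limit, a level of 0.0809 to 0.115 CPM depending on the library, and Scr and OE were both at it. With cytokines, Tnf was at 0.677, 0.551, 1.37 and 0.661 CPM in Scr+Cy. It was at 3.67, 2.07, 6.40 and 4.51 CPM in ZIP+Cy. It was at 48.4, 39.4, 64.5 and 56.4 CPM in OE+Cy. The 3 treated groups did not overlap, with OE+Cy highest, ZIP+Cy next and Scr+Cy lowest, while the 3 untreated groups could not be ordered.

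Csf1 encodes macrophage colony-stimulating factor (chr3:107741048-107760469, minus strand) and was the only one of the 6 listed genes read at over 10 CPM in every library. It was at 22.0, 25.9, 29.3 and 25.5 CPM in Scr, at 21.3, 21.6, 23.6 and 33.4 CPM in ZIP and at 16.9, 16.4, 17.9 and 21.7 CPM in OE. The OE libraries lay below all Scr libraries, and ZIP overlapped with Scr. With cytokines it rose to 267, 306, 352 and 228 CPM in Scr+Cy, to 399, 400, 528 and 436 CPM in ZIP+Cy and to 483, 560, 834 and 700 CPM in OE+Cy. All treated libraries lay far above all untreated ones, ZIP+Cy and OE+Cy both lay above Scr+Cy, and ZIP+Cy and OE+Cy overlapped with each other.

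Lif encodes leukemia inhibitory factor, a member of the IL-6 family (chr11:4257568-4272514, plus strand). Untreated libraries held 15, 9, 12 and 14 reads in Scr, 1, 2, 4 and 8 in ZIP and 4, 8, 10 and 4 in OE, or 0.405, 0.259, 0.375 and 0.434 CPM in Scr, 0.0366, 0.0729, 0.124 and 0.269 CPM in ZIP and 0.121, 0.218, 0.276 and 0.131 CPM in OE. Both modified lines overlapped with Scr at these low counts. With cytokines Lif was at 1.91, 2.51, 2.44 and 1.68 CPM in Scr+Cy, at 1.64, 1.45, 2.61 and 1.81 CPM in ZIP+Cy and at 16.9, 22.4, 25.5 and 20.5 CPM in OE+Cy. Scr+Cy and ZIP+Cy overlapped, and OE+Cy stood above both without overlap.

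Il15 encodes interleukin-15, a growth factor for natural killer cells and memory T cells (chr8:82331624-82402586, minus strand). It was at the detection limit in all 3 untreated groups, with 0 reads in 11 of the 12 libraries and 1 read in Scr replicate 2. With cytokines it was at 0.862, 0.482, 1.03 and 0.721 CPM in Scr+Cy, at 0.279, 0.588, 0.843 and 0.580 CPM in ZIP+Cy and at 1.63, 1.79, 3.22 and 2.64 CPM in OE+Cy. The Scr+Cy and ZIP+Cy libraries overlapped, and the OE+Cy libraries were above all of them.

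Il1b encodes interleukin-1β (chr2:129364578-129371139, minus strand) and overlaps Il1bos, an antisense gene on the opposite strand. Whether the authors' counting used strand is not given in the sources used here, so reads of the pair may not be separable. Without cytokines Il1b was at 2.91, 2.44, 2.16 and 2.69 CPM in Scr, at 3.40, 4.12, 3.81 and 4.91 CPM in ZIP and at 0.907, 0.626, 0.386 and 0.426 CPM in OE. The 3 untreated groups did not overlap, and the order ran from ZIP down through Scr to OE. With cytokines it was at 2.80, 2.58, 3.26 and 3.72 CPM in Scr+Cy, at 4.50, 6.29, 6.40 and 6.87 CPM in ZIP+Cy and at 1.95, 2.03, 2.08 and 1.88 CPM in OE+Cy. The same order of the lines held among treated cells, again without overlap, and OE+Cy remained below even untreated Scr.

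Il1a encodes interleukin-1α (chr2:129299610-129309972, minus strand) and was read at 0 to 12 reads per library in all groups. Group means lay between 0.135 CPM in ZIP (SD 0.118) and 0.205 CPM in OE+Cy (SD 0.138), and neighbouring groups in this order overlapped throughout. It overlaps Gm14023, a gene on the opposite strand that was read at 17 to 39 reads per library, more than Il1a in each, so part of the few Il1a reads may belong to it. None of the 7 comparisons between groups passed the test for Il1a (adjusted p from 0.613 to 0.998), and at these few reads only a large difference could have been detected.

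**Figure D1:**
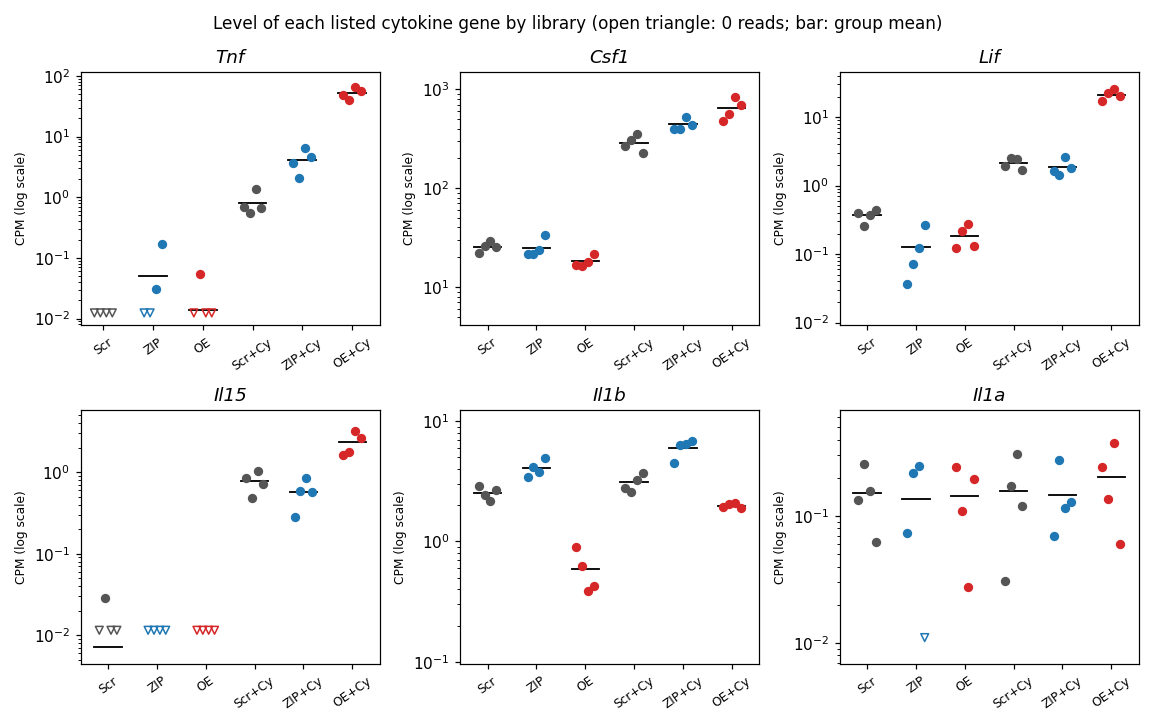
Level of the 6 listed cytokine genes in each library, in CPM on a log axis, by group. Filled points are libraries, open triangles are libraries with 0 reads placed at an arbitrary low position, and bars are group means of 4 libraries. Tnf, Csf1, Lif and Il15 are higher in every treated group than in the untreated group of the same line, and within each treatment state Il1b separates by line.

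Levels of different genes were set side by side per kilobase of annotated exon. In OE+Cy the order was Csf1 at 122 CPM per kb, Tnf at 31.8, Lif at 4.90, Il1b at 1.04, Il15 at 1.03 and Il1a at 0.104. In Scr+Cy the same scale gave Csf1 at 54.6, Il1b at 1.62, Tnf at 0.498, Lif at 0.491, Il15 at 0.342 and Il1a at 0.0800. Csf1 was thus the leading gene in both, and Tnf stood ahead of Il1b in OE+Cy and behind it in Scr+Cy.

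The first question was which cytokine genes each line raised on treatment. Here and below, calling a gene required a change of 1.5-fold or more together with a Benjamini-Hochberg adjusted p under 0.05 over all 17696 genes (edgeR quasi-likelihood test, 4 libraries per group). In Scr cells 4 of the 6 listed genes, Tnf, Csf1, Lif and Il15, were called, all higher with cytokines, against 7.57% of all genes called in either direction. In ZIP cells 4 were called, again all higher, against 9.7% of all genes. In OE cells 5 were called, all higher, with Il1b as the added one, against 19.2% of all genes. The median log2 fold change of the 6 genes was 3.01 in Scr, 3.98 in ZIP and 5.96 in OE as fitted, and 2.82, 3.15 and 4.93 with groups at the detection limit set at 3 reads per library, beside 0.00, -0.01 and 0.02 over all genes. In each line the treated and untreated libraries of every called cytokine gene were apart, and the share of all genes with libraries apart was not counted. Tnf and Il15 were listed only through their treated libraries. In Scr, ZIP and OE together Tnf held 0, 6 and 2 reads and Il15 held 1, 0 and 0, short of the 10 needed. The counts and medians above, and their comparison with all genes, are therefore partly set by that filter.

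Csf1 was 11.2-fold higher in Scr+Cy than in Scr (log2 fold change 3.49 ± 0.18 SE, adjusted p = 1.2e-13). Its ratio of means was 17.7 in ZIP cells (4.14 ± 0.18, adjusted p = 8.45e-15) and 35.4 in OE cells (5.15 ± 0.19, adjusted p = 1.72e-16). The rise of Csf1 was thus present in all 3 lines. Lif rose with a log2 fold change of 2.52 ± 0.26 in Scr (adjusted p = 6.93e-08), 3.82 ± 0.33 in ZIP (adjusted p = 2.69e-09) and 6.78 ± 0.27 in OE (adjusted p = 6.67e-16). In ZIP cells the size of the Lif response depended on replicate 4 of the untreated group and was 4.47 without it. Tnf was at least 9.22-fold higher in Scr+Cy than the detection limit in Scr (adjusted p = 5.66e-05) and at least 591-fold higher in OE+Cy than the limit in OE (adjusted p = 1.01e-13), where 3 reads per library stand for the untreated level. In ZIP cells the Tnf log2 fold change was 6.23 ± 0.56 (adjusted p = 2.35e-08), and it was 8.07 without replicate 4, which held 5 of the 6 untreated reads. Il15 was at least 8.75-fold higher in Scr+Cy (adjusted p = 1.42e-06), at least 5.55-fold in ZIP+Cy (adjusted p = 3.08e-06) and at least 26.3-fold in OE+Cy (adjusted p = 7.51e-09). Sizes for Tnf and Il15 are therefore lower bounds wherever the untreated group was at the limit.

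Il1b was called in OE cells and not in Scr or ZIP cells. In Scr cells the log2 fold change was 0.28 ± 0.18 and did not pass (adjusted p = 0.342). In ZIP cells it was 0.57 ± 0.18 (adjusted p = 0.0188), short of the 1.5-fold limit, with overlapping libraries. It passed the limit without ZIP replicate 4 (0.67) or without ZIP+Cy replicate 1 (0.68), and its adjusted p ran from 0.00545 to 0.0669 over the alternatives. In OE cells Il1b was 3.39-fold higher with cytokines (1.75 ± 0.22, adjusted p = 3.97e-07), and all treated libraries were above all untreated ones.

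**Figure D2:**
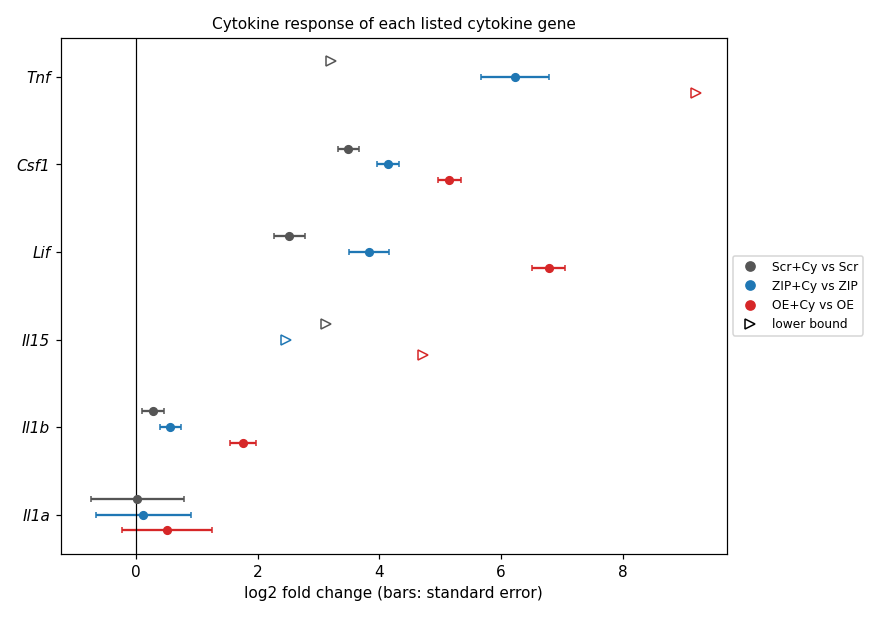
Log2 fold change with cytokines of each listed gene in Scr, ZIP and OE cells (points, with the standard error as bars). Open triangles are lower bounds, drawn where the untreated group was at the detection limit. For Tnf, Csf1, Lif and Il15 all values lie to the right of 0, and the bars of Il1a cross it.

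The second question was whether the response differed between lines, tested as the difference of the log2 fold changes with adjusted p under 0.05. For OE against Scr, 3 of the 6 genes passed, against 20.0% of all genes. The response of Lif was larger in OE by 4.26 ± 0.42 on the log2 scale (adjusted p = 4.27e-07), that of Csf1 by 1.66 ± 0.23 (adjusted p = 3.16e-05) and that of Il1b by 1.48 ± 0.28 (adjusted p = 6.47e-04). For Lif and Csf1 the untreated OE mean was below and the treated OE mean above that of Scr cells, and for Il1b the OE mean was lower in both states. For Tnf and Il15 the difference could not be sized, as both untreated groups were at the detection limit. The edgeR adjusted p for Il15 was 0.246. The edgeR adjusted p for Tnf was 0.969, whereas DESeq2, which then called 4 genes, gave an adjusted p of 0.0146, within a range of 0.0146 to 1.00 over all alternatives. For ZIP against Scr, 0 of the 6 genes passed by edgeR and 0 by DESeq2, against 0.0565% of all genes, and 2 genes, Csf1 (0.65 ± 0.23) and Lif (1.30 ± 0.47), had an unadjusted p under 0.05.

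The third question was how the lines differed in the absence of cytokines. In ZIP against Scr, 2 of the 6 genes were called, against 12.2% of all genes. Il1b was 1.59-fold higher in ZIP (log2 fold change 0.67 ± 0.18, adjusted p = 0.00676), with no overlap between libraries. Without ZIP replicate 4 the value was 0.56 (adjusted p = 0.0323, the highest over the alternatives, which began at 0.00106) and fell under the fold limit. Lif was 2.93-fold lower in ZIP (-1.49 ± 0.42, adjusted p = 0.00859), although the libraries overlapped, with 8 reads in ZIP replicate 4 and 9 in Scr replicate 2. The Lif call was lost without the 3 libraries high in fibroblast markers (-1.16, adjusted p = 0.0978) and when only the compared groups were fitted (adjusted p = 0.0682), its adjusted p starting at 0.00123 in the other alternatives, and without ZIP replicate 4 the value was -2.14. Csf1 differed by -0.04 ± 0.17 between these lines. Tnf, with 6 reads in ZIP and 0 in Scr, was not called by edgeR (adjusted p = 0.224) and was called by DESeq2 (adjusted p = 0.0305), with a range of 0.0305 to 0.610 over the alternatives.

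In OE against Scr, 2 of the 6 genes were called, both lower in OE, against 23.8% of all genes. Il1b was 4.35-fold lower (log2 fold change -2.12 ± 0.21, adjusted p = 9.08e-09), and all OE libraries were below all Scr libraries. Lif was 1.97-fold lower (-0.94 ± 0.37, adjusted p = 0.0386) with overlapping libraries, and this call was not stable. It was lost on leaving out OE replicate 1, 2 or 4 or Scr replicate 1, 3 or 4, with values from -1.01 to -0.78, and its adjusted p ran from 0.0222 to 0.11 over the alternatives. Without the 3 libraries high in fibroblast markers its value was -0.88 (adjusted p = 0.0942). Csf1 was lower by -0.49 ± 0.17 on the log2 scale (adjusted p = 0.0181), under the fold limit although the libraries did not overlap, and reached the limit without OE replicate 4 (-0.59, adjusted p = 0.0109, in a range of 0.00124 to 0.0768).

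The fourth question was how the lines differed once treated. In ZIP+Cy against Scr+Cy, 3 of the 6 genes were called, all higher in ZIP+Cy, against 12.6% of all genes. Tnf was 5.11-fold higher (log2 fold change 2.35 ± 0.34, adjusted p = 1.41e-05), and Il1b was 1.95-fold higher (0.96 ± 0.18, adjusted p = 2.00e-04). Csf1 was 1.53-fold higher (0.61 ± 0.16, adjusted p = 0.00455), close to the fold limit. The Csf1 value fell under that limit without Scr+Cy replicate 1 (0.58), Scr+Cy replicate 4 (0.52) or ZIP+Cy replicate 3 (0.51), and without the 3 libraries high in fibroblast markers (0.58), its adjusted p staying between 4.45e-04 and 0.0242. Lif (-0.19 ± 0.22, adjusted p = 0.565) and Il15 (-0.44 ± 0.38, adjusted p = 0.439) did not pass.

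In OE+Cy against Scr+Cy, 5 of the 6 genes were called, against 26.7% of all genes. None of the 5 had overlapping libraries, and how often this held over all genes was not counted. The OE+Cy libraries exceeded the Scr+Cy libraries 64.0-fold for Tnf (6.0 ± 0.32 on the log2 scale, adjusted p = 1.09e-12) and 9.99-fold for Lif (3.32 ± 0.20, adjusted p = 1.38e-12). Il15 was 3.0-fold higher (1.58 ± 0.37, adjusted p = 0.00135) and Csf1 2.24-fold higher (1.16 ± 0.16, adjusted p = 1.25e-06). Il1b went the other way and was 1.56-fold lower in OE+Cy (-0.64 ± 0.19, adjusted p = 0.00595). That difference fell under the fold limit without Scr+Cy replicate 4 (-0.54, adjusted p = 0.0286, the highest over the alternatives, which began at 0.00315). The comparisons of ZIP and OE share the Scr libraries, so their values are given side by side and not as independent evidence.

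**Figure D3:**
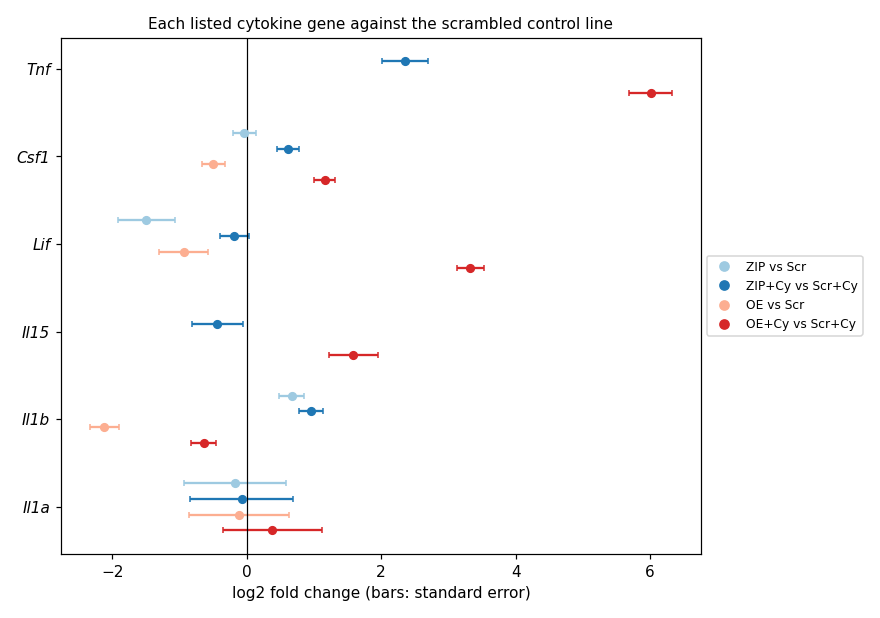
Log2 fold change of each listed gene in ZIP and OE cells against Scr cells, untreated (pale) and with cytokines (dark), with the standard error as bars. Untreated Tnf and Il15 are left out, since one or both groups were at the detection limit. With cytokines, Tnf, Lif, Il15 and Csf1 lie above 0 in OE cells and Il1b below 0.

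Of the receptor chains through which these cytokines act, 16 of 17 were listed, all but Csf2rb2. In response to cytokines 6 of the 16 were higher in Scr, 5 in ZIP and 10 in OE, and 0 were lower in any line, where 7.57%, 9.7% and 19.2% of all genes were called in either direction. The median log2 fold change of the list was 0.58, 0.48 and 1.14 as fitted, and 0.58, 0.37 and 1.12 with groups at the detection limit set at that limit and genes at it in both groups left out. Il15ra, the chain that presents IL-15, rose from 2.16 ± 0.106 to 9.87 ± 0.749 CPM in Scr, from 1.28 ± 0.195 to 7.46 ± 0.698 CPM in ZIP and from 0.713 ± 0.0998 to 11.7 ± 1.70 CPM in OE (means ± SD, n = 4). Il15ra thus rose in the same groups as Il15 itself. Its response was larger in OE than in Scr by 1.83 ± 0.18 on the log2 scale (adjusted p = 4.27e-07). For Il15 the difference in response did not pass (adjusted p = 0.246), but it could not be sized, as both untreated groups were at the detection limit. Il1r2, a decoy receptor that binds IL-1 without signalling, rose from 0.857 ± 0.0996 to 2.21 ± 0.600 CPM in Scr (log2 fold change 1.36 ± 0.21), and Tnfrsf1a, the main TNF receptor, from 86.1 ± 5.79 to 141 ± 14.9 CPM (0.71 ± 0.08). The IL-18 receptor chain Il18rap rose in Scr (2.56 ± 0.26), ZIP (3.23 ± 0.32) and OE (1.89 ± 0.22), and Il18r1 rose in OE from 0.333 ± 0.096 to 17.7 ± 7.11 CPM (5.72 ± 0.35, adjusted p = 2.36e-11). Il18r1 was at the detection limit in Scr+Cy, so its level in OE+Cy was at least 182-fold higher there, although its ligand gene Il18 was not listed. Il6st, which encodes gp130, the chain that Lif and IL-6 share, rose from 260 ± 19.8 to 391 ± 32.3 CPM in Scr (0.59 ± 0.12), from 306 ± 9.25 to 553 ± 28 CPM in ZIP (0.85 ± 0.12) and from 208 ± 30.6 to 434 ± 101 CPM in OE (1.06 ± 0.12).

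Between untreated lines, 0 of the 16 receptor chains were higher and 5 lower in ZIP than in Scr, against 12.2% of all genes called, and 5 were higher and 3 lower in OE, against 23.8%. Csf2ra, a chain of the GM-CSF receptor, was at 0.547 ± 0.122 CPM in OE against 4.53 ± 0.306 in Scr (log2 fold change -3.05 ± 0.20, adjusted p = 5.42e-12), and remained lower with cytokines (-2.19 ± 0.18, adjusted p = 2.73e-10). Il6ra, the IL-6-binding chain, was lower in ZIP both without (-1.06 ± 0.28, adjusted p = 0.00552) and with cytokines (-1.48 ± 0.29, adjusted p = 4.00e-04). Il1r2 was higher in OE without (1.74 ± 0.21) and with cytokines (1.49 ± 0.19), and in ZIP with them (1.02 ± 0.19). Among treated lines 1 receptor chain was higher and 2 lower in ZIP+Cy than in Scr+Cy, against 12.6% of all genes, and 6 were higher and 2 lower in OE+Cy, against 26.7%. Csf1r, the receptor for CSF1, was read at 0 to 32 reads per library and at 0 in 11 of 24 libraries.

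All 11 genes for maturation, release and antagonists of the cytokines were listed. With cytokines 6 of the 11 were higher in Scr, 7 in ZIP and 8 in OE, and 0 were lower, against 7.57%, 9.7% and 19.2% of all genes called, with a median log2 fold change of 1.21, 0.98 and 1.52 as fitted and 1.21, 0.83 and 1.17 with the limit treated in the same way. Casp1, the protease that cleaves pro-IL-1β and pro-IL-18, was at 0.216, 0.374, 0.313 and 0.248 CPM in Scr and at 17.7, 27, 30.7 and 23.1 CPM in Scr+Cy, a log2 difference of 6.40 ± 0.34 (adjusted p = 3.85e-13). It rose as well in ZIP (5.6 ± 0.31) and OE (7.17 ± 0.38), in contrast to Il1b, whose response in Scr did not pass the test. Gsdmd, the pore protein through which IL-1β leaves cells, rose from 7.16 ± 0.687 to 44.7 ± 6.29 CPM in Scr, from 1.84 ± 0.514 to 13.4 ± 1.29 CPM in ZIP and from 1.96 ± 0.279 to 33.5 ± 5.64 CPM in OE. It was lower than in Scr in both modified lines without cytokines and in ZIP+Cy (-1.74 ± 0.13, adjusted p = 1.78e-10). Il18bp, a secreted protein that neutralises IL-18, was at 325, 354, 336 and 376 CPM in Scr+Cy, at 249, 302, 290 and 315 CPM in ZIP+Cy and at 121, 139, 144 and 146 CPM in OE+Cy, against at most 10.8 CPM in any untreated library. OE+Cy was lower than Scr+Cy without overlap (-1.34 ± 0.23, adjusted p = 3.1e-05). The IL-1 receptor antagonist gene Il1rn, at the detection limit in Scr+Cy, was at 0.934 ± 0.296 CPM in OE cells without cytokines and at 2.7 ± 1.05 CPM with them (log2 fold change 1.52 ± 0.47, adjusted p = 0.0108). The latter was 27.8-fold or more above that limit (adjusted p = 4.95e-07).

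Pycard, the adaptor that links inflammasome sensors to caspase-1, was higher than in Scr in untreated ZIP (2.56 ± 0.29) and OE (4.36 ± 0.26). With cytokines it was higher than in Scr+Cy in ZIP+Cy (1.82 ± 0.25) and OE+Cy (4.32 ± 0.23). The reference levels were low, at 0.169 ± 0.0715 CPM in Scr (3 to 9 reads per library) and 0.398 ± 0.0964 CPM in Scr+Cy (9 to 15 reads). Casp4, the mouse caspase-11 gene, reached 7.21 ± 1.63 CPM (Scr+Cy), 15.6 ± 5.13 CPM (ZIP+Cy) and 31.2 ± 7.99 CPM (OE+Cy), from at most 0.773 CPM in any untreated library. Between untreated lines, 1 of the 11 genes was higher and 2 lower in ZIP than in Scr, against 12.2% of all genes called. In OE 2 were higher and 2 lower, against 23.8%. Between treated lines, 2 were higher and 2 lower in ZIP+Cy than in Scr+Cy, against 12.6%. In OE+Cy 3 were higher and 1 lower, against 26.7%.

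**Figure D4:**
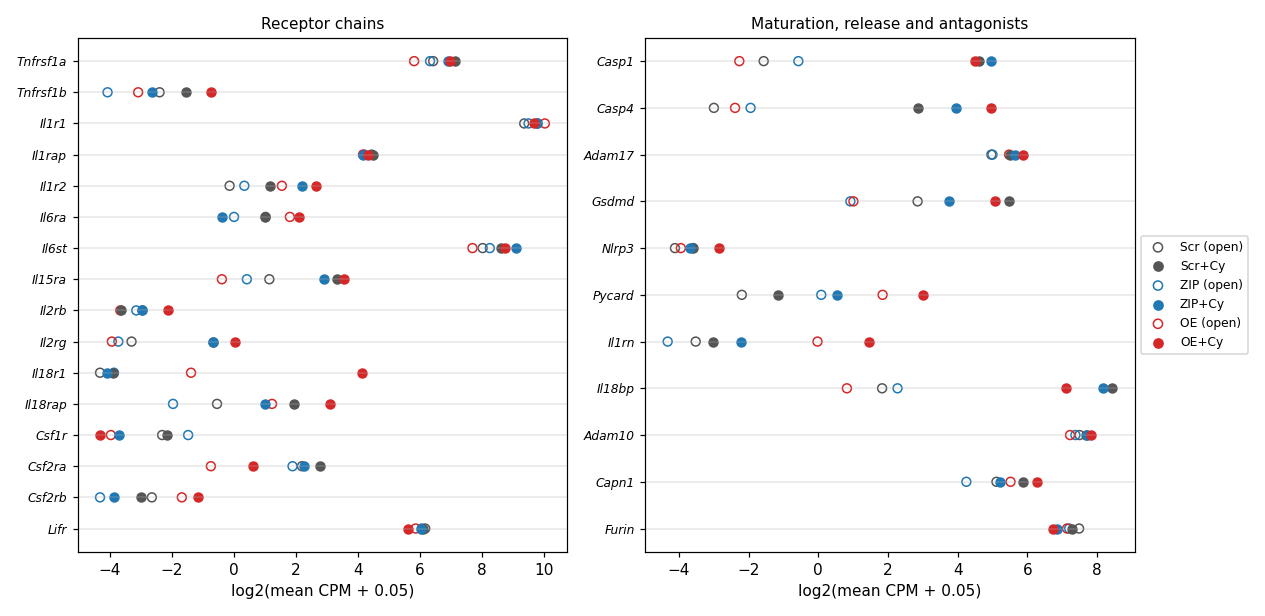
Mean level of the listed receptor chains (left) and of the genes for maturation, release and antagonists (right) in the 6 groups, as log2 of the mean CPM of 4 libraries plus 0.05. Open circles are untreated groups and filled circles groups with cytokines. Casp1, Casp4 and Il18bp separate the treated from the untreated groups in all lines, and Il18r1 stands apart in OE+Cy.

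Other cytokine genes were counted for comparison, and 29 of 55 were listed. In response to cytokines 3 were higher and 1 lower in Scr, 6 higher and 0 lower in ZIP, and 11 higher and 2 lower in OE, against 7.57%, 9.7% and 19.2% of all genes called, with a median log2 fold change of 0.43, 0.00 and 2.0 as fitted. With the limit treated as above the medians were 0.00, 0.08 and 0.57. Tnfsf10 (TRAIL), a death-receptor ligand of the TNF family, rose from 2.91 ± 1.22 to 196 ± 47.3 CPM in Scr (6.08 ± 0.34, adjusted p = 7.66e-13), and was higher than that in ZIP+Cy (456 ± 61.1 CPM) and OE+Cy (552 ± 87.2 CPM). Il7, a lymphocyte growth factor, rose in Scr (2.36 ± 0.25), ZIP (3.79 ± 0.30) and OE (5.11 ± 0.29), and its response was larger in OE than in Scr by 2.75 ± 0.39 (adjusted p = 3.8e-05). Lta, which lies beside Tnf in the genome and encodes lymphotoxin α, was at 1.04 ± 0.131 CPM in OE+Cy and 0.0762 ± 0.110 CPM in Scr+Cy, a log2 difference of 3.74 ± 0.73 (adjusted p = 1.37e-04). Il27, a cytokine of the IL-12 family, rose in Scr from 0.0698 ± 0.071 to 0.872 ± 0.455 CPM (3.51 ± 0.54, adjusted p = 2.62e-05), and it rose in ZIP (4.00 ± 0.47) and OE (3.71 ± 0.45) to levels above Scr+Cy. Between untreated lines 1 of the 29 was higher and 1 lower in ZIP than in Scr, a share below the 12.2% of all genes called, and 6 were higher and 3 lower in OE, against 23.8%. Between treated lines 2 were higher and 2 lower in ZIP+Cy, a share near the 12.6% of all genes, and 14 higher and 2 lower in OE+Cy, against 26.7%.

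Untreated ZIP replicate 4 stood apart from the other ZIP libraries at several of these genes. It held 5 Tnf reads, where the others held 0, 0 and 1, and 23 Casp4 reads, where the others held 0, 1 and 1. Its Il18bp level was 10.8 CPM against 2.23 to 3.10 CPM, and its Tnfsf10 level was 16.0 CPM against 3.40 to 7.00 CPM. These genes all rose with cytokines in the 3 lines, and the library was also the highest of its group for Csf1, Lif and Il1b. Other genes that rose in the 3 lines did not set it apart. Casp1 was at 1.08 CPM in it and 0.868 CPM in replicate 3, and Il15 had 0 reads in it. The source of this difference was not tested.

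The genes whose levels followed each cytokine gene most closely over the 24 libraries were sought by Pearson correlation of log2 CPM among 13310 genes, as a description. The points share the cytokine treatment and the 3 lines, which set most of the variation. Tnf was followed most closely by Pigr (0.984), Trim12c (0.979) and Dnase1l3 (0.978), and Csf1 by Ripk2 (0.995), Irf1 (0.993) and Psme2 (0.993). Lif was followed by Litaf (0.989), Nod2 (0.982) and Cd47 (0.972), and Il15 by Slfn2 (0.986), Dtx3l (0.985) and Apobec3 (0.985). Il1b had other companions, namely Met (0.975), Arrdc4 (0.969) and Lmo2 (0.962). Between Tnf, Csf1, Lif and Il15 the correlation was 0.908 to 0.968, and between Il1b and each of these 4 it was 0.167 to 0.423.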

How the data were processed

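Total RNA from 24 libraries of MIN6 cells was sequenced by the authors with an mRNA kit. Per the labels, reads were aligned to mm10 with STAR 2.7.8a in Partek 11.0.24.0204, and FastQC and DESeq2 are named. The authors' methods name other versions of STAR and Partek, and which were used was not settled here. Per the methods, genes with fewer than 10 reads in total were removed, and the lowest gene total in the table was 10. The authors deposited estimated counts per gene, not normalized, 30.3% of them not whole numbers, which were rounded here. A second deposited file holds the same counts divided by size factors (a signal unit). It served only as a check, in which 15 of 286838 values of 50 counts or more departed by over 0.1% from 1 factor per library. Whether counting used strand is not given in the sources used here. The deposited end coordinate was taken as 1 base too high, as it was against RefSeq for 11526 of 17657 matched genes. Exon lengths and overlapping genes came from GENCODE M21 (mm10).

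Here, edgeR 4.0.16 in R 4.3.3 fitted 6 group means to the 24 libraries and 17696 genes (TMM normalization, quasi-likelihood test, Benjamini-Hochberg adjustment), after tests on simulated data. Errors are SDs for levels (n = 4) and standard errors for fold changes. These standard errors were calculated back from the test, as the absolute log2 fold change divided by the square root of F. At low read counts they are approximate and can be too small. For Tnf in ZIP cells the error was 0.56, while leaving out ZIP replicate 4 moved the value from 6.23 to 8.07. CPM used TMM library sizes. Groups with no library above 3 reads were set at the detection limit, and folds against it use 3 reads per library. The alternatives were DESeq2 1.42.0, its size factors, the filterByExpr filter, only the compared groups, a replicate block, unadjusted p, each library left out in turn, and, chosen after seeing the data, the 3 libraries high in fibroblast markers left out. Same-numbered libraries deviated together (r over 0.1 in all 4 pairs, 12670 genes) between Scr and Scr+Cy (0.413 to 0.626), ZIP and ZIP+Cy (0.261 to 0.397), OE and OE+Cy (0.162 to 0.455), Scr and ZIP (0.141 to 0.634) and Scr+Cy and ZIP+Cy (0.191 to 0.37), but not between Scr and OE or Scr+Cy and OE+Cy. The labels give same-numbered libraries of all groups a shared number and code without saying what it marks, so the pairing was judged from these correlations.

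The 9 cytokine genes and the lists were chosen with earlier results of these data known. Every member was described. From each list at most 4 called genes per comparison with a mean of at least 1 CPM were named, the largest absolute log2 fold change first. Outside this rule, values were added for the responses of Il27 and Il6st in Scr and of Il6st and Il1rn in OE. The reads of Csf1r were added in the same way. Per-library values of Il18bp, Tnfsf10, Casp1, Casp4 and Gm14023, the TATAAA motif and the seed search were added after values were seen. The sources used here name no molecular identifiers on the reads.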

Additional observations from a re-analysis of the deposited data

Results flagged for a closer look

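In groups of 4, a library far from the other 3 was found in 3 of the 33 gene and group combinations that varied, where chance gives about 1 in 20. Tnf was at 0.0544 CPM in OE replicate 2 and at 0 in the other OE libraries, and Il15 was at 0.0287 CPM in Scr replicate 2 and at 0 in the other Scr libraries. These are 2 reads and 1 read, and with reads in only 1 library the gap fills the whole range by construction, so the chance rate does not apply to these 2 combinations. Tnf was at 1.37 CPM in Scr+Cy replicate 3, against 0.551 to 0.677 CPM in the other Scr+Cy libraries.

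The cytokine response differed between OE and Scr cells by the edgeR test of the difference for 3 of the cytokine genes. On the log2 scale the OE response was larger by 4.26 for Lif (adjusted p = 4.27e-07), 1.66 for Csf1 (adjusted p = 3.16e-05) and 1.48 for Il1b (adjusted p = 6.47e-04). Among their receptor chains it was larger by 1.83 for Il15ra (adjusted p = 4.27e-07), 0.86 for Csf2ra (adjusted p = 0.0263) and 0.46 for Tnfrsf1a (adjusted p = 0.00345). For Il1r1, the signalling IL-1 receptor, the response differed by -0.74 (adjusted p = 8.29e-05), with a mean of 1048 CPM in OE and 830 in OE+Cy against 660 in Scr and 872 in Scr+Cy. Among the other genes it was larger by 1.45 for Gsdmd (adjusted p = 3.09e-05), 0.44 for the sheddase gene Adam10 (adjusted p = 0.00258) and 2.75 for Il7 (adjusted p = 3.8e-05). For Tnfrsf1a, Csf2ra and Gsdmd the OE mean was below that of Scr cells both without and with cytokines. For Il15ra, Adam10 and Il7 the OE mean was below that of Scr cells without cytokines and above it with them. In total 20.0% of all genes passed the test of the difference in response, and what sets these differences was not tested.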

How the results depend on the processing

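Over 843 alternative values for the fold changes of the listed cytokine genes, 822 kept their call, 16 lost it, 5 gained it and 0 reversed, and 180 alternative group levels stayed within 1 SD. In ZIP against Scr, 2 genes were called and 1 when only the compared groups were fitted, 1 without the 3 libraries high in fibroblast markers and 1 to 2 with each library left out. In OE against Scr the same 3 settings gave 1, 1 and 1 to 2. The gene lost was Lif, except without ZIP replicate 4, where it was Il1b, and the cause was not tested. Leaving out each library gave 4 to 5 genes in ZIP+Cy against ZIP, 2 to 3 in ZIP+Cy against Scr+Cy and 4 to 5 in OE+Cy against Scr+Cy. For the difference in response between ZIP and Scr, 0 genes passed, and 2 at an unadjusted p. Over all genes this count was 10, and it was 41 by DESeq2, 45 with the replicate block, 1137 at an unadjusted p and 7 to 12 with each library left out. For OE it was 3537, and 5601 at an unadjusted p. The replicate block, where same-numbered libraries were paired, changed no call of a listed cytokine gene. At a limit of 10 reads in place of 3, 13 in place of 5 combinations of a gene and an untreated or treated group fell at the detection limit, so differences at the levels of Il1a, untreated Lif and untreated Tnf are limited by depth.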
